A study of Mus musculus with 8 samples.

Results

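Open chromatin in the early hours of a Klf4 time course (0h and 6h, 4 peak lists) was compared with open chromatin in the late hours (12h and 24h, 4 peak lists). Peaks of the 19 autosomes and X were merged over the 8 lists wherever they shared 1 bp or more, which gave 32720 regions. The strength of a peak was its percentile of fold enrichment within its own list, where 100 is the strongest peak, and it was compared over the 13359 regions called in 6 or more of the 8 libraries. A further 353 regions were listed for their pattern of calls alone: 163 had a peak in all 4 early lists and in at most 1 late list, and 190 had a peak in all 4 late lists and in at most 1 early list. They are called early-listed and late-listed regions.

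The libraries were made by ATAC-seq, in which a transposase cuts accessible DNA and adds sequencing adapters, from a fixed number of cells each. All 8 libraries were of GFP+ MLL-AF9 acute myeloid leukemia cells with TetO-Klf4, sorted from the bone marrow of leukemic mice (cell line label C57BL/7), and they differed only in the treatment label, which is the hour: 0h, 6h, 12h or 24h, with 2 libraries per time. TetO denotes a promoter that doxycycline switches on, here in front of Klf4, and MLL-AF9 is a fusion oncogene. Doxycycline at 0h is neither stated nor excluded by the labels, so 0h stands for the first time point and not for an uninduced state. The labels also do not tell whether the 2 libraries of a time came from separate mice, so every p-value measures the spread between libraries, which may be technical. The spread of a side holds both that of the replicates and that between its 2 times.

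KLF4 is a zinc-finger transcription factor that binds GC-rich and CACCC-like sequences and is known for driving monocyte differentiation and for restraining cell division. Acute myeloid leukemia cells are held in an immature state by a self-renewal programme that includes Hoxa9 and Meis1. Regions of open chromatin lie mostly at gene starts, where transcription begins, and at distal enhancers, which differ more between cell states.

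The 6 promoter stretches that follow belong to genes whose start lay in or beside a region described further on. Each is the 250 bases before the gene start, from RefSeq on GRCm38.p6, 5′ to 3′ on the gene's strand. Capitals mark matches to the KLF motif GGGNGTGG (reverse complement CCACNCCC) and to the RUNX motif TGTGGT (reverse complement ACCACA). Napb (chr2:148732421-148732670, minus strand) overlapped an early-listed region, Hopx (chr5:77095268-77095517, minus strand) and Cdkn1a (chr17:29093519-29093768, plus strand) late-listed ones. Pcyox1 (chr6:86397151-86397400, minus strand) and Rnf8 (chr17:29614539-29614788, plus strand) had higher late percentiles, and Zfp971 (chr2:178023034-178023283, plus strand) had lower ones.
Napb: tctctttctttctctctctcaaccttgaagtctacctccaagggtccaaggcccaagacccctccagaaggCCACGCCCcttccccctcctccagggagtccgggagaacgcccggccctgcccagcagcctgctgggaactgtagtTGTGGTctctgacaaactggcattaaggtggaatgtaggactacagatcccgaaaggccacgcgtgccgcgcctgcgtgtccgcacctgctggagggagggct
Hopx: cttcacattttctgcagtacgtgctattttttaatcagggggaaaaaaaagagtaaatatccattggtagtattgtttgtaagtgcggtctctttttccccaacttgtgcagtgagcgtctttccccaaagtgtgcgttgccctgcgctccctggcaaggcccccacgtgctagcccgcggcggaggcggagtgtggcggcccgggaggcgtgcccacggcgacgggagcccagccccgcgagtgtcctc
Cdkn1a: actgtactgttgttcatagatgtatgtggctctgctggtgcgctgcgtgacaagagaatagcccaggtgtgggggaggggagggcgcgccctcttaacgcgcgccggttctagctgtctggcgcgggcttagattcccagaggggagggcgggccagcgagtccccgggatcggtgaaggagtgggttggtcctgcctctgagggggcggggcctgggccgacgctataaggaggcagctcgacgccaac
Pcyox1: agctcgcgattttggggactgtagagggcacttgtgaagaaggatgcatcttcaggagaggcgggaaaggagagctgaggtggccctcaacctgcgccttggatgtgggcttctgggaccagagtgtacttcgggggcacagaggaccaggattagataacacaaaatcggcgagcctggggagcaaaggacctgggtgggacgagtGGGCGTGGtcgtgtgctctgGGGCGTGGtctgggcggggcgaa
Rnf8: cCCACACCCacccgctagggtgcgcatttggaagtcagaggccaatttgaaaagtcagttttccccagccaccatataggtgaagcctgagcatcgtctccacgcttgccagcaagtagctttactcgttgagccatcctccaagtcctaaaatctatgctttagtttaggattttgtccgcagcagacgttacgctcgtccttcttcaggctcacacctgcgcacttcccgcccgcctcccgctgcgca
Zfp971: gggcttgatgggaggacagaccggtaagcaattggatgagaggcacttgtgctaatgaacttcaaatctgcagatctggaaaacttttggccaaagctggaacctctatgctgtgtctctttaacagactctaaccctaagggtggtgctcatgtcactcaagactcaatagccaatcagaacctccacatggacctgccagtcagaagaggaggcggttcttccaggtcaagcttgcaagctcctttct

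Matches to 5 motifs were counted on both strands in windows of 300 bases, from 250 before to 50 after each gene start. The KLF motif was found in 3 of 9 windows that overlapped early-listed regions (33.3%), in 7 of 32 that overlapped late-listed regions (21.9%), in 25.8% of the 6176 that overlapped regions called in all 8 libraries and in 19.4% of all 17273 windows. AP-1 (TGANTCA) was found in 11.1%, 9.38%, 3.40% and 7.14% of the same 4 sets, and RUNX in 33.3%, 6.25%, 11.0% and 14.9%. PU.1 (GAGGAAGT, reverse complement ACTTCCTC) was found in 11.1%, 6.25%, 2.77% and 3.19%, and C/EBP (TTGCNNAA, reverse complement TTNNGCAA) in 0%, 3.13%, 7.22% and 10.3%. The median number of CpG dinucleotides was 22 in the early-listed windows and 18 in the late-listed ones, against 24 for regions called in all 8 libraries and 14 over all windows. With 9 and 32 windows these shares are descriptions, and a match is not a binding site.

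Regions with a peak in every early list and hardly any late list were rare, and so was the reverse. Early-listed regions were 0.498% of the 32720 merged regions and late-listed regions 0.581%, whereas 9168 regions were called in all 8 libraries. Of the 163 early-listed regions, 40 had no late peak and 123 had 1, and of the 190 late-listed regions, 45 had no early peak and 145 had 1. Just outside the threshold lay 384 regions called in 4 early and 2 late lists and 451 called in 4 late and 2 early lists. These counts follow from the rule and were not tested.

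**Figure D1:**
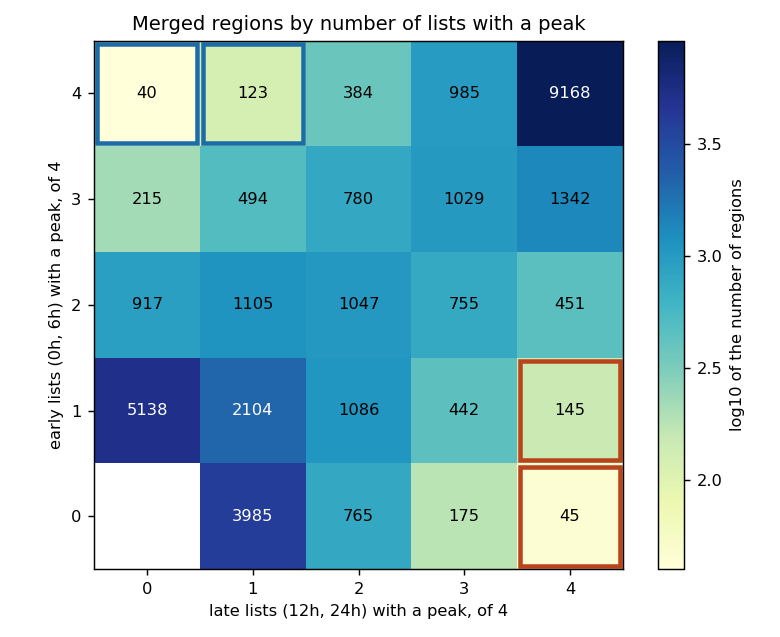
Number of merged regions for each combination of early lists (vertical axis, 0 to 4) and late lists (horizontal axis, 0 to 4) with a peak; colour is log10 of the number, blue frames mark early-listed and red frames late-listed regions. The corner called in all 8 lists holds 9168 regions, and the framed cells hold 40 and 123 (early-listed) and 45 and 145 (late-listed).

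Listed regions were weak peaks, as were regions called in 4 or 5 libraries as a whole. The median within-list percentile of the early-listed regions was 39.2 and 28.4 in the 2 libraries of 0h (replicates 1 and 2) and 25.1 and 27.5 in those of 6h. That of the late-listed regions was 36.1 and 28.6 at 12h and 25.0 and 26.1 at 24h. Regions called in all 8 libraries had a median of 71.1, and those called in 4 early and 2 late or 4 late and 2 early lists medians of 37.9 and 35.6. Taken as mean percentiles per region, the medians were 29.5 for early-listed and 29.1 for late-listed regions (own side). They were 29.0 over regions called in 4 or 5 libraries and 31.9 over all merged regions, so the weakness is not particular to listed regions. At the summit the median listed peak held 12, 7, 9 and 10 tags in the early libraries and 13, 11, 10 and 9.5 in the late ones, in the same order. A pile-up of 10 tags has an exact 95% Poisson interval of 4.80 to 18.4, which covers counting error only, so a peak missing from a list at this depth does not show that the region was closed.

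The single call on the other side was unevenly shared among libraries. For the 145 late-listed regions with 1 early peak, that peak came from 0h replicate 1 in 60, from 0h replicate 2 in 9, from 6h replicate 1 in 36 and from 6h replicate 2 in 40. For the 123 early-listed regions with 1 late peak, it came from 12h replicate 1 in 66, from 12h replicate 2 in 35, from 24h replicate 1 in 16 and from 24h replicate 2 in 6. The lists with most such peaks, 0h replicate 1 and 12h replicate 1, were also the longest (21756 and 21895 peaks, against 14822 to 19722 in the other 6), and the background at the lowest points of the lists, an index of depth, ranged from 1.50 tags per kb in 0h replicate 2 to 2.67 in 0h replicate 1. With every list shortened to its 14822 strongest peaks, 61 of the 163 early-listed and 76 of the 190 late-listed regions kept their pattern, and with peaks of −log10 q of at least 5 only, 69 and 83 did. As a whole the shortened lists gave 138 early-listed and 190 late-listed regions, and the stricter q gave 111 and 197. Either step only removes peaks, so a region can also lose its pattern through a lost peak on its own side. The part of list length and depth in the listed regions was not tested further.

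Among regions with no late peak, the 10 with the highest early percentiles included regions inside Clec1a and Dnah6 and 1 at the start of Napb. The region inside Clec1a, which encodes a C-type lectin receptor, lay 7.78 kb from the nearer end of the gene (chr6:129434304-129434665). Its percentile was 82.4 and 84.3 at 0h and 54.7 and 40.5 at 6h, and its fold enrichment 11.3, 11.3, 8.54 and 7.26, so both 0h peaks ranked above both 6h peaks. A region in Dnah6, an axonemal dynein heavy chain gene, 11.0 kb downstream of the start (chr6:73210500-73210788), had percentiles of 87.6, 51.7, 62.3 and 56.5. The region 65 bp upstream of the start of Napb, a SNAP protein of membrane fusion (chr2:148732259-148732584), had percentiles of 70.7, 28.1, 81.2 and 66.2 and folds of 9.82, 6.19, 11.6 and 9.66. The weakest of its peaks was that of 0h replicate 2, the shallowest library.

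A region 30.1 kb upstream of Wnt11, which encodes a secreted Wnt ligand (chr7:98804907-98805183), had percentiles of 56.7 and 68.9 at 0h and 36.5 and 66.4 at 6h. The other 6 had lower means, from 36.8 to 49.9. They lay in Ncam2 (a neural adhesion molecule), 4.77 kb downstream of the start of the olfactory receptor gene Olfr275, in the bicarbonate transporter gene Slc4a4, and in Snx14 with Nt5e as the nearest start. For the remaining pair, on X (chrX:97651799-97652163) and on chromosome 17 (chr17:51406975-51407330), no gene lay within 100 kb. Of these 10 regions, 9 kept their pattern with lists of equal length and 7 with peaks of −log10 q of at least 5.

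Among regions with no early peak, the highest late percentiles belonged to a region inside Anp32e, the gene of a histone chaperone that removes H2A.Z, 13.6 kb downstream of the start (chr3:95942652-95942991). Its percentile was 69.4 and 89.1 at 12h and 62.8 and 30.0 at 24h, with folds of 10.1, 12.7, 9.50 and 6.84. Both 12h peaks ranked above both 24h peaks. Rspo2, which encodes an R-spondin that enhances Wnt signalling, was the nearest gene of a region 37.4 kb from its end (chr15:42983177-42983493), with percentiles of 43.1, 31.1, 51.9 and 82.4. The region 26.9 kb upstream of S1pr3, a sphingosine-1-phosphate receptor gene (chr13:51381546-51382086), had percentiles of 67.2, 63.7, 51.5 and 12.4.

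Plek, which encodes the leukocyte and platelet protein pleckstrin, held a region 20.8 kb downstream of its start (chr11:16987543-16988105) with percentiles of 68.1 and 58.3 at 12h and 19.8 and 24.1 at 24h. The region of Chmp4c, an ESCRT gene, lay 0.316 kb from an end of the gene (chr3:10390573-10390820) and had 71.4, 27.7, 33.5 and 62.6. Regions near Pigm (GPI anchor synthesis) and Itch (a ubiquitin ligase) and inside Xpo6 (nuclear export; nearest end Gsg1l), Kpna2 (nuclear import) and Pik3r1 (the regulatory subunit of PI3 kinase) completed the 10, with means of 40.2 to 51.4. Percentiles within a region spread widely, with SDs of 16.0 to 27.1 over the 4 late libraries. With lists of equal length 7 of the 10 kept their pattern, and 8 did with peaks of −log10 q of at least 5.

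**Figure D2:**
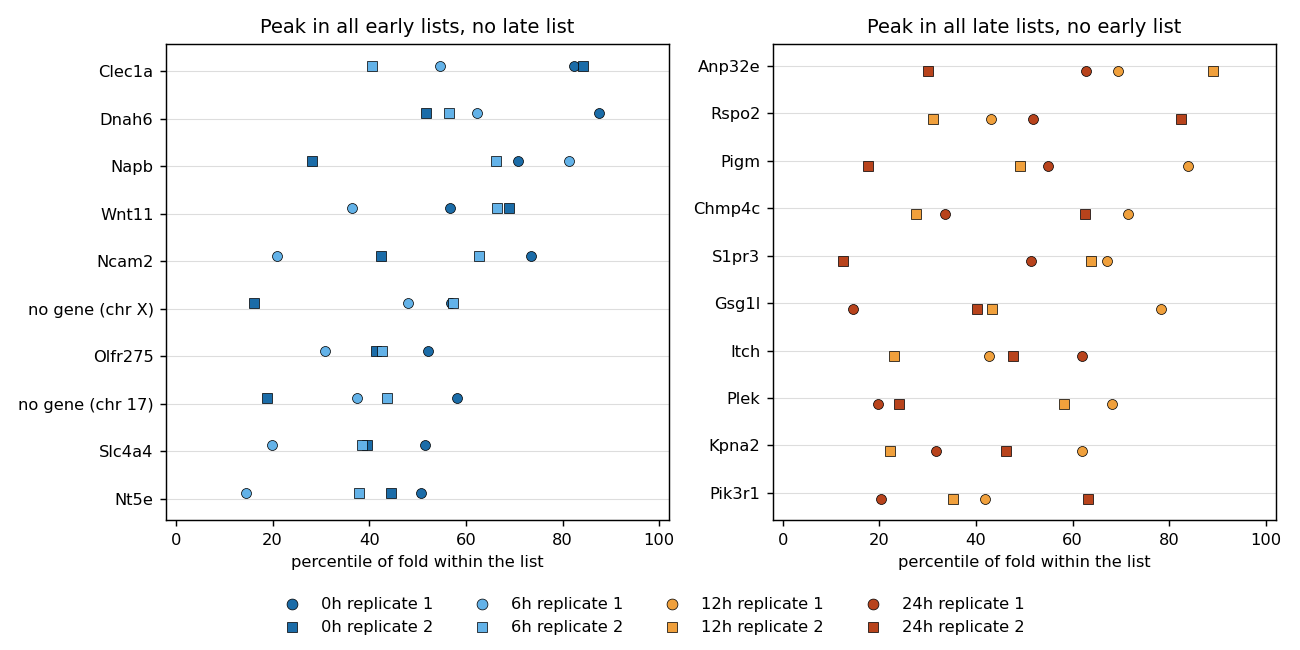
Within-list percentile of fold enrichment (horizontal axis, 0 to 100) of the 10 early-listed regions (left) and 10 late-listed regions (right) with the highest means among those with no peak on the other side, 1 symbol per library. Clec1a ranged from 40.5 to 84.3 and Anp32e from 30.0 to 89.1; no symbols exist for the other side because its lists have no peak there.

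A few listed regions with 1 peak on the other side were stronger. The region 39.2 kb from an end of Mex3c, an RNA-binding ubiquitin ligase gene (chr18:73533317-73533537), stood at percentiles of 99.96 to 99.99 in all 4 early lists and at 99.99 in 12h replicate 2, and had no peak in the other 3 late lists. Its summits held 218, 126, 178 and 203 tags in the early lists and 212 in 12h replicate 2, far more than most listed peaks. Why the other 3 late lists lack this peak was not tested. A region 31.3 kb upstream of Plekha1, a pleckstrin-homology adaptor gene (chr7:130834421-130834599), had late percentiles of 74.3, 73.9, 77.4 and 85.7, and its 1 early peak, in 6h replicate 1, stood at 83.8. The region 42 bp from an end of Med24, a Mediator subunit gene (chr11:98729337-98729570), had 83.3, 67.6, 66.2 and 67.2 in the late lists and 66.2 in 0h replicate 1. In these 3 the single peak on the other side was about as strong as the 4 that put the region on the list.

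A larger share of late-listed than of early-listed regions lay at gene starts, but the size of that gap depended on single libraries. Within 1 kb of a gene start (or of either end of a gene whose strand was not given) lay 14 of 163 early-listed regions (8.59%, Wilson 95% interval 5.19% to 13.9%) and 48 of 190 late-listed regions (25.3%, 19.6% to 31.9%). The intervals take regions as independent and hold no spread between libraries. The share was 32.3% over all merged regions, 19.2% over regions called in 4 or 5 libraries and 71.9% over those called in all 8. Without 24h replicate 2 the shares were 17.6% and 18.2%, and without 24h replicate 1 they were 15.0% and 20.1%; the 24h lists were the shortest (15104 and 14822 peaks) and had the highest shares of peaks near gene starts (54.8% and 56.5%, against 42.5% to 50.7% in the other 6). The gap also narrowed with lists of equal length, to 17.4% against 26.8%, without 0h replicate 2, to 15.9% against 21.0%, and without 12h replicate 1 or 2, to 17.0% against 22.0% and 16.6% against 23.7%. It was wider without 0h replicate 1 (10.6% against 30.7%), 6h replicate 1 (8.36% against 26.2%) and 6h replicate 2 (11.3% against 29.4%).

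**Figure D3:**
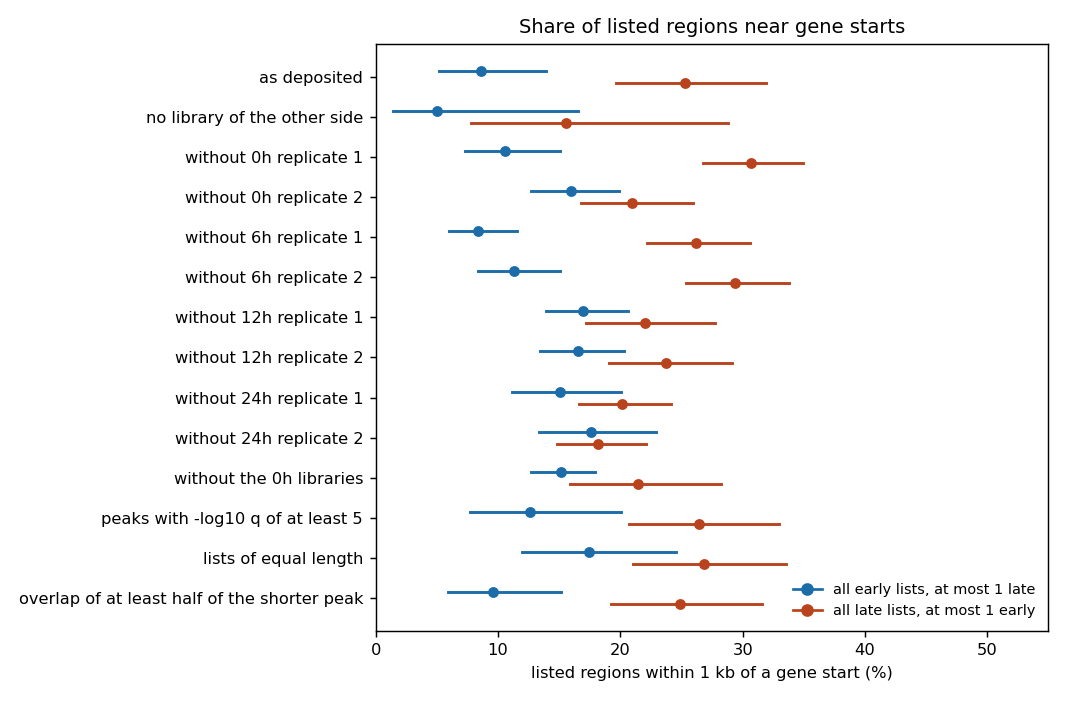
Percent of listed regions within 1 kb of a gene start (horizontal axis) for early-listed (blue) and late-listed (red) regions under each setting (vertical axis), with Wilson 95% intervals. These take regions as independent and hold no spread between libraries. The shares are 8.59% and 25.3% with the lists as deposited and 17.6% and 18.2% without 24h replicate 2, where the intervals overlap almost fully.

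The late-listed regions near gene starts included 7 with no early peak, and 20 had their 1 early peak in 0h replicate 1. Their mean late percentiles ran from 9.38 to 71.1 with a median of 29.5, and those of the 14 early-listed ones from 5.47 to 61.6 with a median of 26.0. Farther out, 31 early-listed regions (19.0%) and 11 late-listed regions (5.79%) lay more than 100 kb from any gene start. Over the settings tried, that share was 12.5% to 19.9% for early-listed and 4.44% to 9.26% for late-listed regions. Widths were close, with medians of 469 and 477.5 bp, and 52.8% and 60.5% lay inside a gene. Regions of either kind lay within 10 kb of a region called in all 8 libraries in 14.7% and 15.3% of cases, against 13.0% of all regions.

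Few genes held more than 1 listed region. Of 14310 genes with any region, 154 (1.08%) had an early-listed region and 198 (1.38%) a late-listed one. Rgs2, which encodes a GTPase activator that damps G-protein signalling, had 2 early-listed regions. The first lay 2.56 kb upstream of its start (chr1:144006604-144006832), with percentiles of 27.7, 22.5, 15.4 and 28.9 and no late peak. The other lay 43.6 kb downstream (chr1:143960448-143960669), with 58.7, 58.6, 62.5 and 38.8 early and 20.6 in 24h replicate 1.

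Hopx, a homeodomain-only gene, had 2 late-listed regions, and both kept their pattern in lists of equal length. The region at its start (58 bp downstream, chr5:77094794-77095639) had late percentiles of 45.5, 26.2, 15.1 and 18.1 and an early 34.2 in 0h replicate 1. The region 4.46 kb upstream (chr5:77119354-77119741) had 61.2, 69.9, 25.1 and 38.8, with 37.1 in 6h replicate 1. Plekha1 and Slfn2, a Schlafen gene, also had 2 late-listed regions each, and 9230019H11Rik, Fgd4 and Prkd3 had 1 in each direction. In Hopx, Plekha1, Fgd4 and Prkd3, at least 1 of the regions had its single call on the other side in 0h replicate 1 or 12h replicate 1, the longest lists.

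Genes of the leukemic self-renewal programme appeared on both lists. Of 24 with a region, 3 had an early-listed region (Cdk6, Lmo2 and Mbnl1) and 2 a late-listed one (Hoxa9 and Mecom), where over all genes with a region 1.08% were early-listed and 1.38% late-listed. The counts were not tested. At 21 of these genes lay 58 regions called in 6 or more libraries, and a gene with more regions has more chances of a listed one. The region downstream of the start of Hoxa9, a homeobox gene at the core of this programme (1.13 kb, chr6:52226012-52226447), had late percentiles of 5.58, 13.1, 21.2 and 1.84 and an early 4.70 in 6h replicate 2. That of Mecom, a zinc-finger gene of stem cells (1.23 kb downstream), had 45.7, 11.0, 11.5 and 5.14 and an early 16.8. The early-listed region in the body of Cdk6, a G1 kinase gene, had 2.71, 24.7, 15.9 and 16.6 with no late peak. The early-listed region 11.9 kb from Lmo2, a LIM-domain gene, had 9.76, 51.8, 20.3 and 35.2. The 5 regions had mean percentiles of 10.4 to 29.3 on their own side, and none kept its pattern in lists of equal length. With peaks of −log10 q of at least 5, those of Cdk6 and Lmo2 kept it and the others did not.

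Of 28 monocyte genes with a region, 2 were late-listed (Irf8 and Spi1) and 0 early-listed. Irf8, a transcription factor of monocyte fate, had a region 21.0 kb upstream of its start (chr8:120715295-120715707) with percentiles of 35.3, 24.9, 36.4 and 11.5 and no early peak. Spi1, which encodes PU.1, had a region 6.93 kb from an end of the gene with 32.5, 40.7, 20.8 and 2.76 and an early 35.1 in 6h replicate 2. The region of Irf8 lost its pattern with lists of equal length, with peaks of −log10 q of at least 5 and with merging at a 50% overlap only. That of Spi1 kept its pattern with lists of equal length but lost it with the stricter q. These counts were not tested, and a gene with more regions has more chances of a listed one. Over all genes with a region 1.38% were late-listed and 1.08% early-listed. The granulocyte list had no listed region among 18 genes, the KLF and SP family none among 21.

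In the lists for stress and growth control, single genes were listed. The late-listed region at the start of Cdkn1a, which encodes the cell-cycle inhibitor p21, lay 81 bp upstream (chr17:29093606-29094090), with late percentiles of 15.2, 0.071, 7.36 and 35.9 and an early 0.122 in 6h replicate 2. Nr4a1, an immediate early nuclear receptor gene, had a late-listed region with 28.7, 17.8, 10.2 and 16.6 and an early 30.4 in 0h replicate 1. Jarid2, a Polycomb cofactor gene, had a late-listed region 8.53 kb upstream with 17.2, 15.3, 42.6 and 12.1 and no early peak. Early-listed were Nfkb1, an NF-kB subunit gene (0.480 kb from an end; 21.6, 28.7, 30.7 and 31.2, no late peak), and Casp6, an executioner caspase gene (13.5, 28.4, 19.5 and 13.8, with 20.8 in 12h replicate 1). Of the 16 listed regions of list members, 4 kept their pattern in lists of equal length: those of Clec1a, Plek, Spi1 and Pdgfrb. With peaks of −log10 q of at least 5, 5 of the 7 early-listed and 1 of the 9 late-listed ones kept it.

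Marker genes of other cell types had peaks in every library of both sides. In the early lists 3 to 4 of 14 B-lineage genes, 5 to 8 of 16 T and NK genes and 1 to 3 of 12 erythroid genes had a peak, and in the late lists 1 to 4, 5 to 7 and 1 to 2. Megakaryocyte genes had 5 to 6 and 4 to 6 of 12, and stromal and endothelial genes 3 to 6 and 1 to 6 of 14. None of the B, T and NK or erythroid genes had a listed region, whereas 2 of 7 megakaryocyte genes (Nfe2 and Plek) were late-listed and 1 of 10 stromal genes (Pdgfrb) early-listed. Over all genes with a region, 1.38% were late-listed and 1.08% early-listed. Peaks were found at 22 to 24 (early) and 21 to 24 (late) of 25 self-renewal genes, at 15 to 23 and 11 to 19 of 30 monocyte genes and at 3 to 7 and 5 to 8 of 20 granulocyte genes. The granulocyte counts were thus not set apart from those of the other cell types. Monocyte genes had a peak in a larger share than the other cell types in most libraries. In 0h replicate 1, for example, 23 of 30 monocyte and 6 of 12 megakaryocyte genes had a peak. It was otherwise in 24h replicate 2, with 11 of 30 and 5 of 12. The part of other cell types in the results was not tested. In bulk samples fewer cells of a type and less accessibility per cell cannot be told apart.

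At Klf4 itself, the induced gene, 2 regions were compared and neither passed. The region inside the gene, 1.99 kb downstream of the start (chr4:55530055-55530940), had percentiles of 32.2, 39.0, 45.6 and 46.1 in the early lists and 22.5, 41.7, 21.6 and 10.1 in the late ones. Its mean was 40.7 ± 6.55 early and 24.0 ± 13.1 late (SD, n = 4 libraries each), a difference of −16.7 points (SE 7.47; limma, adjusted p = 0.890). The sides overlapped through 12h replicate 2. The region 129 bp upstream of the start (chr4:55532429-55533024) was missing in 0h replicate 2 and had 20.3, 15.3 and 16.2 in the other early lists and 53.4, 4.58, 38.7 and 35.3 in the late ones, so that of the late lists 12h replicate 2 alone did not lie above the early values. It averaged 17.2 ± 2.67 early (n = 3) and 33.0 ± 20.5 late (n = 4), a difference of 15.8 points (SE 11.0; limma, adjusted p = 0.937). That difference was 25.2 points without 12h replicate 2 (limma, adjusted p = 0.885), 8.94 without 12h replicate 1 (0.940), 31.2 with peaks of −log10 q of at least 5 (0.804) and 33.3 with lists of equal length (0.667). The construct holds Klf4 sequence too, so inside the gene its reads and those of the endogenous gene cannot be told apart.

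Over the 13359 regions called in 6 or more libraries, no region had a late percentile that differed from the early one after adjustment. The limma fit with Benjamini-Hochberg adjustment called 0 regions higher late (0%) and 0 lower late (0%), and the smallest adjusted p was 0.766. At an unadjusted p under 0.05, 314 regions were higher late (2.35%) and 442 lower late (3.31%), 5.66% in all. The higher share of these was 41.5% with within-list percentiles, but 52.3% with percentiles over the common regions, 52.2% with centred log2 folds and 52.9% with lists of equal length, so the balance of direction turned with the scaling. It also turned with single libraries, from 23.9% without 12h replicate 1, 31.1% without 12h replicate 2 and 33.6% without 0h replicate 2 to 52.0% without 24h replicate 2, 53.7% without 24h replicate 1 and 59.8% without 0h replicate 1. The exact permutation test of a single region cannot go below p = 0.0286 with 70 arrangements of 4 against 4 libraries.

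The median difference (late minus early) was −0.62 points, with quartiles of −7.31 and 5.86, and the median standard error was 9.24 points. A difference above 20 points in size was seen in 1053 regions (7.88%). It was seen in 5.59% of the 8079 regions near a gene start and in 11.4% of the 5280 others, whose medians were −0.72 and −0.39 points. Among the 9168 regions called in all 8 libraries, 108 (1.18%) had all 4 late percentiles above all 4 early ones, and 161 (1.76%) all 4 below, 2.93% in all. If the 8 libraries were interchangeable, the expected proportion would be 0.0286, the smallest p of the exact permutation test, so 2.93% is near the chance share.

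**Figure D4:**
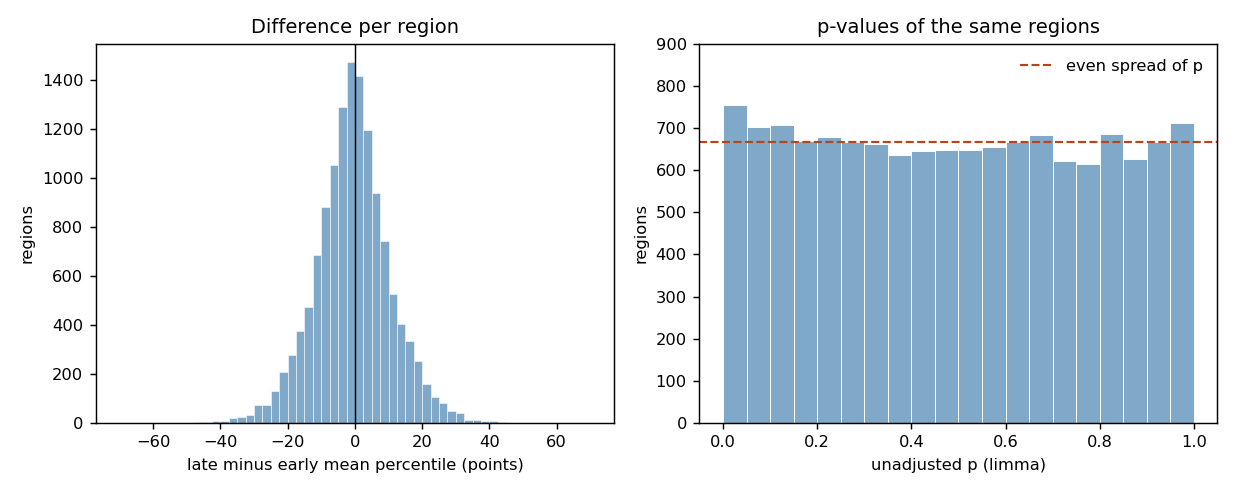
Left, number of regions (vertical axis) by late minus early mean percentile in points (horizontal axis), over 13359 regions. Right, number of regions by unadjusted limma p, with a dashed line where an even spread of p would lie; the bar of the smallest p holds 756 regions.

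The gene lists gave no call in this fit either. The 58 regions of self-renewal genes had a median difference of −0.27 points, 3 higher and 3 lower at an unadjusted p under 0.05, beside −0.62 over all regions. The 38 regions of AP-1 and immediate early genes had a median of −3.89 (1 higher, 4 lower), the 34 of Polycomb genes −4.28 (1 and 2), the 32 of KLF and SP genes −2.05 (2 and 1) and the 45 of cell cycle genes −0.96 (0 and 4). Monocyte regions (35) had −0.49 and 1 higher, apoptosis regions (41) −0.29 and 2 higher, and NF-kB regions (24) 0.49 and 2 higher. No list is called particular from these medians.

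Of the regions with the smallest p, 10 higher late and 9 lower late are described, none of which passed (limma, adjusted p = 0.766 for each). All of these had sides that did not overlap, which the choice of the smallest p favours. Pcyox1, which encodes a prenylcysteine oxidase of lysosomes, had its region 14 bp downstream of the start (chr6:86396618-86397351), with percentiles of 45.6, 29.4, 16.8 and 35.1 early and 65.3, 76.6, 79.6 and 63.2 late. The mean was 31.7 ± 12.0 early and 71.2 ± 8.14 late (SD, n = 4 libraries each), a difference of 39.4 points (SE 7.42). The region 15.7 kb upstream of Sc5d, a sterol desaturase of cholesterol synthesis (chr9:42279602-42280136), had 50.1, 37.0, 26.7 and 40.0 early and 62.9, 83.0, 78.4 and 74.9 late.

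The start of Rnf8, a ubiquitin ligase of the DNA damage response (24 bp upstream, chr17:29614315-29615454), had 57.0, 36.8, 36.4 and 34.3 early and 78.1, 63.7, 83.2 and 76.5 late. Pdcd7, a minor spliceosome gene, had 11.5, 25.8 and 21.8 early, with no peak in 0h replicate 2, and 57.7, 48.8, 53.0 and 47.4 late. Tmprss3, a serine protease gene, was called in 2 early libraries (4.88 and 6.96) and had 38.0, 47.2, 45.9 and 56.2 late. Spag9, Ankrd13a (missing in 0h replicate 2), Fam117b, Slc35c1 and Mfhas1 had differences of 25.8, 26.8, 25.8, 30.6 and 43.0 points. Where a library was missing, the fit dropped it.

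The lowest p of all belonged to a region 28.9 kb upstream of Zfp825, a zinc-finger gene (chr13:74522334-74523197). It had percentiles of 70.6, 46.8, 49.5 and 65.2 early and 26.1, 14.2, 6.82 and 22.9 late. The mean was 58.0 ± 11.7 early and 17.5 ± 8.72 late, a difference of −40.5 points (SE 7.44). The start of Ddx5, an RNA helicase gene (136 bp upstream, chr11:106787640-106789382), had 75.3, 98.3, 76.8 and 88.2 early and 52.1, 48.2, 42.9 and 60.7 late.

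The region inside Nfia, a nuclear factor I gene with a role in blood cell fate, lay 190 kb downstream of the start (chr4:97772176-97772595), with 71.3, 71.8, 68.8 and 78.0 early and 48.9, 55.3, 46.8 and 42.7 late. Its SD was 3.89 early, the smallest of the 9, and 5.24 late, with a difference of −24.1 points. The start of Zfp971, whose window holds 4 CpG dinucleotides and none of the 5 motifs, had 40.7, 63.1, 59.4 and 52.2 early and 33.1, 14.6, 26.6 and 11.4 late. Pdia4, Pitpna (inside Slc43a2), Lrrc8d, Rdm1 and Lcor had differences of −39.2, −34.2, −28.4, −28.6 and −31.4 points.

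**Figure D5:**
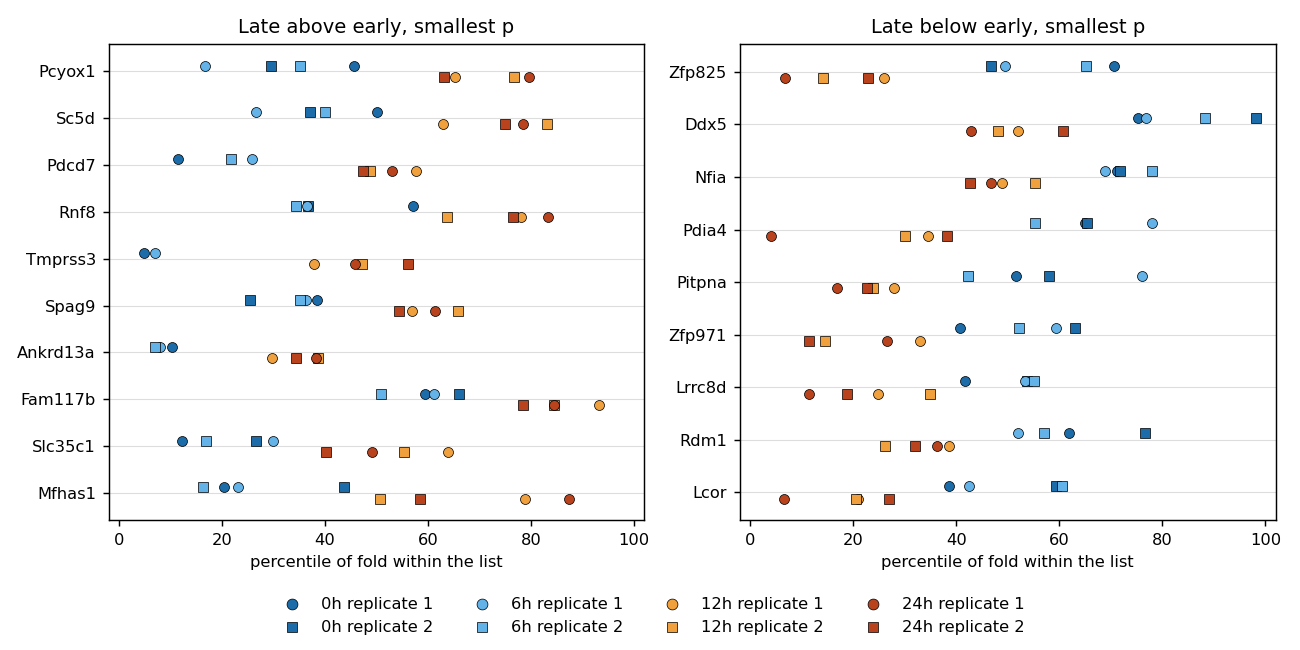
Within-list percentile of fold enrichment (horizontal axis, 0 to 100) of the described regions with the smallest p, 10 higher late (left) and 9 lower late (right), 1 symbol per library and blue for early, orange and red for late. In every region the early and late symbols are apart, as for Pcyox1 (16.8 to 45.6 against 63.2 to 79.6); none passed adjustment.

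Summed over a list, the sides did not differ beyond the spread of libraries. Early lists held 18196 ± 2582 peaks and late lists 17886 ± 3491 (SD, n = 4 each; exact permutation test, two-sided p = 0.886). The share of peaks near a gene start was 48.2% ± 3.69 early and 50.0% ± 6.75 late (exact permutation p = 0.686), and the median peak width 371.75 ± 72.7 bp and 391 ± 11.6 bp (exact permutation p = 0.6). Adjusted over the 3 measures, each p was 0.886. Across the 9168 regions called in all lists, the mean Spearman correlation of percentiles was 0.646 between early libraries, 0.681 between late libraries and 0.660 between sides, and without 0h replicate 2 it was 0.680, 0.681 and 0.677. These correlations run across regions of the same genome and carry no p.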

How the data were processed

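Open chromatin was measured in 8 ATAC-seq libraries, and peaks were called by the authors per library and not on pooled samples. The submitters' processing notes name BWA, SAMtools, MACS2 and the mm10 build; their versions, any read shift for the transposase and the handling of duplicates were not stated. The peak lists deposited by the authors hold an integer score (not used), a fold enrichment (a linear ratio), a −log10 p and a −log10 q, and the summit position. The lowest −log10 q was 2.00.

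Folds of different lists share no scale, so each was turned into a percentile within its list. Regions were fitted with limma 3.58.1 (R 4.3.3), late minus early, with Benjamini-Hochberg adjustment over 13359 regions. Lists were compared by exact permutation, with all 70 arrangements enumerated in Python 3.11.15 and numpy 2.4.6. Poisson and Wilson intervals came from scipy 1.17.1. The pile-up came from the fold and the −log10 p; it was whole within 0.001 for 99.8% to 99.9% of peaks. Total reads were not used. Starts of 17273 of 21627 protein-coding genes came from RefSeq's GRCm38.p6 promoter table; for the other 4354 the nearer of both ends was used. A region was assigned to the nearest start within 100 kb of its strongest summit.

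The regions and gene lists were chosen with earlier results of these data known. Named were Klf4, the 10 regions per direction with the smallest p, the 10 listed regions per direction with the highest mean percentile (no call on the other side first), up to 5 genes with most listed regions and up to 4 members per gene list. A few of the regions so chosen are not reported here. Mex3c, Plekha1 and Med24 were singled out after their values were seen. Alternatives were lists of equal length (the 14822 strongest peaks of each), only peaks whose −log10 q reached 5, a 50% overlap, other scalings, each library left out and a replicate block. Added later were the omission of both 0h libraries and, among the scalings, the logit of the percentile. A further alternative took the spread of the fit from replicates within times. The fit was tested on simulated data.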

Additional observations from a re-analysis of the deposited data

Results flagged for a closer look

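Among 66 groups of 4 library values checked, 2 had a library far from the other 3, and chance gives about 1 in 20. At the start of Rnf8, 0h replicate 1 was the highest early library with a percentile of 57.0, and its gap to the next took 0.891 of the range of the early libraries. At Lrrc8d, 0h replicate 1 was the lowest early library with 41.7, and its gap took 0.877 of the range. Both stand apart in the same library, 0h replicate 1; a cause was not tested.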

How the results depend on the processing

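No region passed in any of the 18 settings of the fit. Their smallest adjusted p ran from 0.184 to 0.974 (limma or the exact permutation test per region), with 2.93% to 6.38% of regions at an unadjusted p under 0.05. The 0.974 and the 2.93% came from the exact permutation test per region. Its p cannot go below 0.0286, so no call was possible there unless most regions stood at that floor. The 0.184 came from limma on the logit (log odds) of the percentile, a scaling added later. The 22 named regions (20 from the fit and 2 of Klf4) kept their direction in all 377 values that could be had; 19 could not. The 20 were chosen for their small p and their sides did not overlap, so leaving out a library could not turn their direction. The other settings reuse the same peaks. With the replicate block the fit gave 0 calls, 314 higher and 425 lower at an unadjusted p under 0.05 and a smallest adjusted p of 0.844. With the spread taken from replicates within times, limma gave 0 calls over 12975 regions and a smallest adjusted p of 0.753. At an unadjusted p under 0.05, 301 regions were then higher and 509 lower. The difference between replicates 1 and 2 of a time, taken per region, correlated between times at −0.041 to 0.0065. Such differences hold counting error, so low correlations cannot show whether the replicate numbers pair the libraries. In exact permutation tests within the block, p was 0.889 for peaks per list, 0.778 for the share near starts and 0.556 for width.

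The median difference of all regions was 0.23 with peaks of −log10 q of at least 5 and ran from −2.21 to 0.77 with libraries left out. Peaks per list (late minus early) came to 379 with −log10 q of at least 5. With each library left out, it ran from −1647 to 876, the share near starts from −0.41 to 4.25 points and the width from −10.7 to 48.7 bp; the last, without 0h replicate 1, had the smallest exact permutation p that 3 against 4 libraries allow, 0.0286.

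Leaving out a library loosens the rule for listed regions and gave 244 to 483 early-listed and 236 to 492 late-listed regions. Early-listed counts moved by over 1.5 times without 0h replicates 1 and 2, 6h replicates 1 and 2, 12h replicates 1 and 2 and 24h replicate 1; late-listed counts without 0h replicates 1 and 2, 6h replicates 1 and 2 and 24h replicates 1 and 2. Shares near gene starts ran from 8.36% to 17.6% (early-listed) and from 18.2% to 30.7% (late-listed). With no call on the other side, 40 and 45 regions remained, 5.0% and 15.6% near starts. Without both 0h libraries, 726 regions were early-listed, 15.2% near starts, and 168 late-listed, 21.4% near starts. With equal lists the shares were 17.4% and 26.8%. The causes were not tested.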

Other observations

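The median fold enrichment of a list did not overlap between sides, at 7.78, 7.65, 8.14 and 8.03 in the early lists and 8.20, 8.24, 8.31 and 8.63 in the late lists. Over the 9168 regions called in all 8 libraries the medians did overlap: 10.6, 9.26, 10.4 and 10.5 early and 11.1, 10.8, 10.1 and 10.4 late. With lists of equal length they were 9.30, 7.83, 8.76 and 8.88 early and 9.76, 9.39, 8.40 and 8.63 late, which overlap too. This pattern was noticed in the data and was not tested.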
